A study of Mus musculus with 8 samples.

Results

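The 8 genes described here mark the zones of the liver lobule in hepatocytes: Cyp2e1, Cyp1a2, Glul and Oat are pericentral, highest around the central vein, and Cyp2f2, Cps1, Ass1 and Sds are periportal, highest around the portal tract. They were picked by symbol, and each was read from the probe set that carried its symbol alone and had the highest mean over the 8 arrays. In this way 7 of the 8 genes were measured, 4 pericentral and 3 periportal, among 22180 genes in all. Sds had no probe set in the probe table used here and was not analysed here.

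The arrays held RNA from primary hepatic stellate cells, the retinoid-storing pericytes of the liver sinusoid, isolated from BALB/c mice. In all, 4 groups of 2 arrays each were compared. Cultured cells were quiescent stellate cells kept for 10 days on plastic dishes. The 2-week and 4-week CCl4 cells came straight, without seeding, from mice with fibrosis after 2 or 4 weeks of carbon tetrachloride. Quiescent cells came straight from healthy mice, at 0 hours and without seeding. The strain and the array labelling were shared by all 8 arrays, as was a preamplification of the RNA before labelling. The treatment text attached to every sample also names valproic acid after seeding, and the labels leave unsettled if the 10-day cultures were given it. Nothing in the labels tells whether paired arrays represent separate animals or dishes, and the p-values then reflect array-to-array spread alone, which may be technical.

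Hepatocytes divide their work along the blood flow that runs from the portal tract to the central vein. Periportal hepatocytes make urea and glucose, and pericentral hepatocytes make glutamine and hold most of the cytochrome P450 enzymes. Wnt ligands and R-spondin 3 from cells around the central vein maintain the pericentral genes. CYP2E1 is the P450 that turns CCl4 into the trichloromethyl radical, and the resulting injury is centred on the central vein. None of these enzymes defines a stellate cell, and in an array of bulk RNA fewer cells of a type and less RNA per cell cannot be told apart.

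The stellate label was borne out by the marker genes, but hepatocyte and other liver transcripts were present too and moved with the groups. On the log2 scale of robust multi-array average (RMA) values, the mean of 6 activation markers was 11.42 and 11.47 in cultured cells, 11.18 and 11.04 in 2-week CCl4 cells, 10.98 and 11.15 in 4-week CCl4 cells, and 6.75 and 7.27 in quiescent cells. The mean of 10 markers of quiescent stellate cells was 7.88 and 7.58 in cultured cells, 10.31 and 10.47 in 2-week CCl4 cells, 10.44 on both 4-week arrays, and 10.78 and 10.96 in quiescent cells. Stellate markers of one kind or the other were thus bright in every group. A set of 12 hepatocyte genes was listed as a reference for the whole lobule, and the zonation of those genes was not measured here. Their mean was 4.92 and 5.07 in cultured cells, 7.81 and 8.29 in 2-week CCl4 cells, 7.02 and 6.84 in 4-week CCl4 cells, and 9.83 and 9.01 in quiescent cells. Hepatocyte transcripts were thus highest in quiescent cells, where array 1 exceeded array 2, and near the array floor in culture. As a guide to that floor, the 95th percentile of 1394 olfactory and vomeronasal receptor genes was 4.75. In cultured cells 7 of the 12 hepatocyte genes averaged at or under it, against 0 of 12 in quiescent cells. Means of 8 sinusoidal endothelial markers ran from 4.94 to 5.21 in cultured cells, from 7.66 to 8.03 in 2-week CCl4 cells, from 6.95 to 7.31 in 4-week CCl4 cells and from 8.85 to 9.98 in quiescent cells. Endothelial transcripts thus followed the same order of groups. Means of 8 macrophage markers ran from 6.07 to 6.27 in cultured cells, from 7.45 to 7.72 in 2-week CCl4 cells, from 5.90 to 5.98 in 4-week CCl4 cells and from 7.83 to 7.86 in quiescent cells. The part that these other cells' transcripts play in the results below was not tested.

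The promoters of 4 members are printed here as those of the P450 genes, one of which is periportal, and of a pericentral gene of another enzyme class. All 4 genes were called lower in culture. The sequences are RefSeq's on GRCm38.p6, and a table of 250 bases before to 50 bases after each gene's start matched 6 of the 7 measured members, all except Cps1. Each line gives the 250 bases before the start, 5′ to 3′ on the gene's strand. Capitals mark TATAAA on the gene's strand, CTTTGA (the core letters of a TCF/LEF site) on either strand, so also as TCAAAG, and CCAAT on either strand, so also as ATTGG.
Cyp2e1, chr7:140763569-140763818, plus strand: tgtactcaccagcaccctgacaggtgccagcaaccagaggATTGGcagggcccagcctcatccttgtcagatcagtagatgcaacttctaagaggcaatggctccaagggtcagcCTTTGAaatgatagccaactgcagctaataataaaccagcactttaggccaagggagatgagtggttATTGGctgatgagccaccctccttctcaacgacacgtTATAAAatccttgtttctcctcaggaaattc
Cyp1a2, chr9:57683656-57683905, minus strand: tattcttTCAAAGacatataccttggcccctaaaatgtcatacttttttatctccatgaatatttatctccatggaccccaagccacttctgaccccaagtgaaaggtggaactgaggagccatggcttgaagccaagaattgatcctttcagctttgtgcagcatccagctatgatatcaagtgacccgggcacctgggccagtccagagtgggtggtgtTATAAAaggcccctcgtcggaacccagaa
Cyp2f2, chr7:27119705-27119954, plus strand: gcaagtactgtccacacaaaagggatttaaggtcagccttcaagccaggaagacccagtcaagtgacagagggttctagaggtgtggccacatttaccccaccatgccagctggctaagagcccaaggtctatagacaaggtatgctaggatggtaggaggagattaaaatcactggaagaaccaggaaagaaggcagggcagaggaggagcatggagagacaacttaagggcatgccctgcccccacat
Glul, chr1:153899679-153899928, plus strand: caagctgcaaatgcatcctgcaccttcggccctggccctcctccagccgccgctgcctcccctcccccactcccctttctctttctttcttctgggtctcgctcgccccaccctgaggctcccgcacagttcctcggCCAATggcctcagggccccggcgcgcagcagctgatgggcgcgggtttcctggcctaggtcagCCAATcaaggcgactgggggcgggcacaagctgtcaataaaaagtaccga

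The pericentral P450 promoters of Cyp2e1 and Cyp1a2 each held TATAAA, starting at position -31 in Cyp2e1 and -29 in Cyp1a2, counted back from the gene's start. Both also held CTTTGA, at -135 in Cyp2e1 and -243 in Cyp1a2. Cyp2e1 had CCAAT at -210 and -68, and Glul had it at -113 and -50. The Cyp2f2 window held none of these 3 motifs. GCGTG, the core letters bound by the aryl hydrocarbon receptor, was absent from both strands of all 3 P450 windows and those of Glul and Oat. GGGCGG was also absent from both strands of all 3 P450 windows, while Glul held it at -33. No marked matches overlapped each other. Over all 32851 promoter windows of 300 bases, 8.32% held TATAAA on the gene's strand, 16.0% CTTTGA, 37.4% CCAAT, 32.4% GCGTG and 35.7% GGGCGG on either strand. The P450 windows were poor in CpG, with 4 in Cyp2e1, 3 in Cyp1a2 and 0 in Cyp2f2, whereas Glul had 17, Oat 22 and Ass1 27. The median over all promoters was 7 CpG, with quartiles of 3 and 20. These matches describe letters in a window and show no binding.

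**Figure D1:**
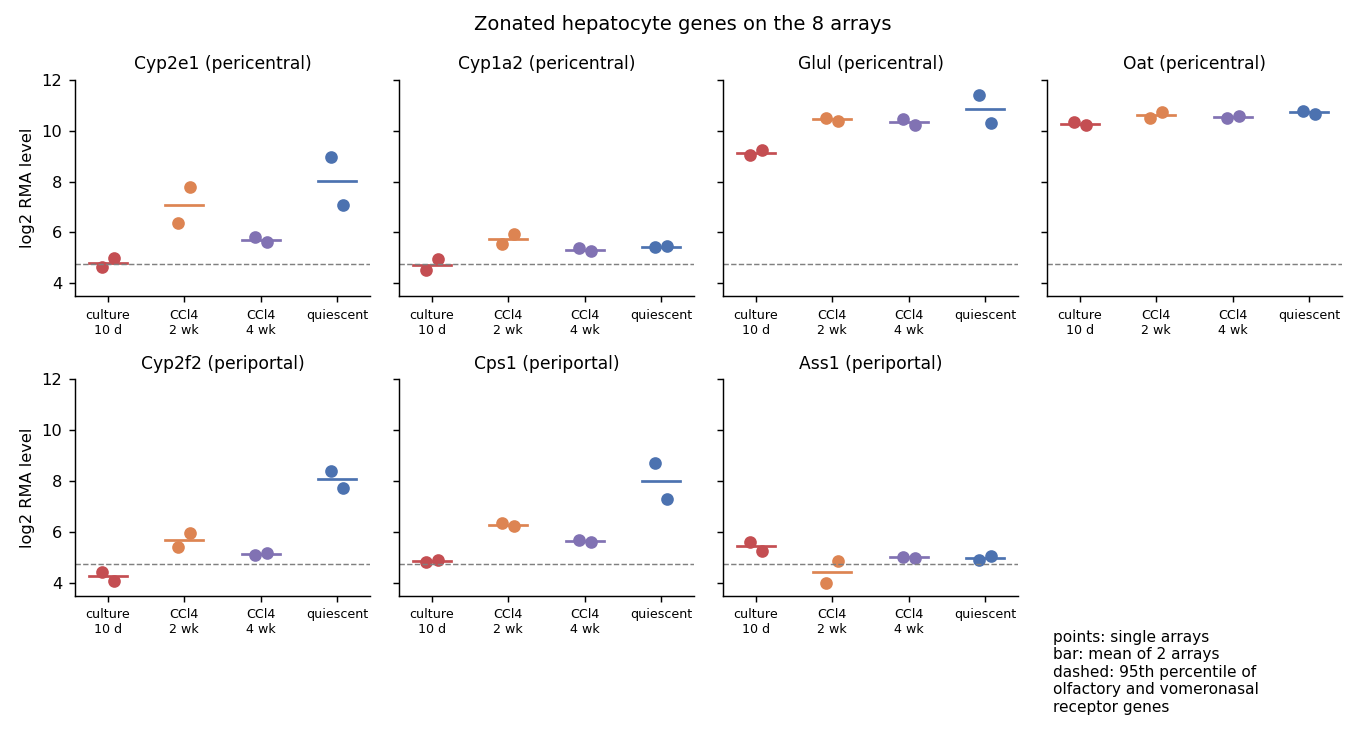
Log2 RMA level (vertical axis) of the 7 measured zonated genes in cultured, 2-week CCl4, 4-week CCl4 and quiescent stellate cells. Points are single arrays, bars are means of 2 arrays, and the dashed line at 4.75 is the 95th percentile of receptor genes. Cyp2e1, Cyp2f2 and Cps1 sit between 7.07 and 8.96 in quiescent cells and at 5.0 or lower in culture, while Glul and Oat stay at 9.06 or higher on all 8 arrays.

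Cyp2e1, the ethanol- and CCl4-metabolising P450, was highest in quiescent cells and lowest in culture, and the CCl4 groups lay between them. Its level was 4.63 and 5.0 in cultured cells, 6.39 and 7.79 in 2-week CCl4 cells, 5.82 and 5.61 in 4-week CCl4 cells, and 8.96 and 7.07 in quiescent cells. Both cultured arrays were below all others, both 4-week arrays were below both quiescent arrays, and the 2-week arrays overlapped the quiescent ones. Means were 4.82 ± 0.26 in cultured cells, 7.09 ± 0.99 in 2-week CCl4 cells, 5.72 ± 0.14 in 4-week CCl4 cells and 8.02 ± 1.34 in quiescent cells (SD, n = 2 each). Against quiescent cells Cyp2e1 fell 9.18-fold in culture (log2 fold change -3.20 ± 0.58 SE, adjusted p = 0.00394, limma with Benjamini-Hochberg adjustment over all 22180 genes). It also fell 4.93-fold in 4-week CCl4 cells (-2.30 ± 0.58, adjusted p = 0.0442). The 2-week difference of -0.93 ± 0.58 did not pass (adjusted p = 0.503, 95% interval -2.26 to 0.40). The quiescent arrays alone differed by 1.89.

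The fall of Cyp2e1 in culture passed the threshold of 0.05 whichever array was left out. The 4-week call was lost without quiescent array 1 (-1.36, adjusted p = 0.145), without either cultured array (0.0719 each), without 4-week array 1 (0.183) or without 4-week array 2 (0.21), and also with a robust variance estimate (0.0591) or with only the arrays compared (0.08). In order of level the groups ran culture, 4 weeks, 2 weeks, quiescent. The neighbours 2 weeks and quiescent did not differ beyond their spread, and the difference of 4-week minus 2-week cells was -1.37 ± 0.58 (95% interval -2.70 to -0.05, unadjusted p = 0.0439, adjusted p = 0.593).

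Cyp1a2, the P450 that oxidises caffeine and arylamines and is induced through the aryl hydrocarbon receptor, was dim everywhere. Its level was 4.51 and 4.96 in cultured cells, 5.53 and 5.95 in 2-week CCl4 cells, 5.37 and 5.26 in 4-week CCl4 cells, and 5.43 and 5.46 in quiescent cells. The cultured arrays were the lowest, with one of them under the guide of 4.75, and the other 6 arrays spanned less than 1 log2 unit. Cyp1a2 fell 1.64-fold in culture (-0.71 ± 0.19, adjusted p = 0.0278). It did not pass in 2-week CCl4 cells (0.30 ± 0.19, adjusted p = 0.528, 95% interval -0.15 to 0.74) or in 4-week CCl4 cells (-0.13 ± 0.19, adjusted p = 0.811). The culture call was lost without quiescent array 1 (adjusted p = 0.0763), quiescent array 2 (0.0816) or cultured array 1 (0.181), and with only the arrays compared (0.0561). Thus the pericentral P450 pair shared a fall in culture, and only Cyp2e1 of the pair passed at 4 weeks, a contrast between the genes that was not tested.

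Glul, glutamine synthetase, and Oat, ornithine aminotransferase, feed nitrogen into glutamine and glutamate in pericentral hepatocytes, and many other cells use both enzymes. They were bright on all arrays, including the cultured arrays where most hepatocyte genes were at the floor. Glul measured 9.06 and 9.22 in cultured cells, 10.49 and 10.39 in 2-week CCl4 cells, 10.46 and 10.23 in 4-week CCl4 cells, and 11.41 and 10.29 in quiescent cells. The cultured arrays were lowest, and both CCl4 groups overlapped the quiescent pair. Glul fell 3.28-fold in culture (-1.71 ± 0.30, adjusted p = 0.00339), a call kept whichever array was left out. The changes of -0.41 ± 0.30 at 2 weeks (adjusted p = 0.585, 95% interval -1.10 to 0.28) and -0.50 ± 0.30 at 4 weeks (adjusted p = 0.429, 95% interval -1.19 to 0.19) did not pass. Quiescent array 1 was 1.12 above array 2, and the CCl4 values depended on which of them was used. Without quiescent array 2 they were -0.97 (adjusted p = 0.0159) at 2 weeks and -1.06 (adjusted p = 0.00799) at 4 weeks, and without quiescent array 1 they were 0.15 and 0.06, neither called. A second, dimmer Glul probe set gave 7.70 and 7.75 in cultured cells, 8.97 and 9.40 in 2-week CCl4 cells, 9.10 and 8.95 in 4-week CCl4 cells, and 10.20 and 9.10 in quiescent cells. The same group was lowest there, and the quiescent arrays differed in the same way.

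Except at 4 weeks, where Cyp1a2 changed by -0.13, Oat moved least among the pericentral genes. Its level was 10.33 and 10.21 in cultured cells, 10.51 and 10.72 in 2-week CCl4 cells, 10.49 and 10.58 in 4-week CCl4 cells, and 10.79 and 10.66 in quiescent cells. The cultured arrays were below the other 6, and the CCl4 and quiescent levels lay close together. The fall in culture was 1.37-fold (-0.46 ± 0.14, adjusted p = 0.0492). That call was lost in each of the 8 fits with 1 array left out (adjusted p 0.0509 to 0.224), with every array centred on its median (-0.37, adjusted p = 0.0939) and with only the arrays compared (0.0894). The CCl4 changes of -0.11 ± 0.14 at 2 weeks (adjusted p = 0.79) and -0.19 ± 0.14 at 4 weeks (adjusted p = 0.542) did not pass.

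Cyp2f2, the periportal P450 known for metabolising naphthalene, separated all 4 groups on its brighter probe set. Its level was 4.44 and 4.09 in cultured cells, 5.41 and 5.96 in 2-week CCl4 cells, 5.11 and 5.19 in 4-week CCl4 cells, and 8.40 and 7.75 in quiescent cells. No group overlapped another, and the cultured arrays were under the guide. Cyp2f2 averaged 4.26 ± 0.25 in cultured cells, 5.68 ± 0.39 in 2-week CCl4 cells, 5.15 ± 0.06 in 4-week CCl4 cells and 8.08 ± 0.46 in quiescent cells (SD, n = 2 each). It fell 14.1-fold in culture (-3.81 ± 0.26, adjusted p = 1.48e-05), 5.26-fold at 2 weeks (-2.40 ± 0.26, adjusted p = 0.00169) and 7.62-fold at 4 weeks (-2.93 ± 0.26, adjusted p = 0.000375). These 3 calls held whichever array was left out. The dimmer of its probe sets gave 4.40 and 4.55 in cultured cells, 4.61 and 5.28 in 2-week CCl4 cells, 4.51 and 4.88 in 4-week CCl4 cells, and 5.86 and 5.33 in quiescent cells. There the 4-week arrays overlapped both the cultured and the 2-week arrays, and the quiescent arrays stayed highest. The changes on this probe set had the same direction and were smaller. They were -1.12 in culture (adjusted p = 0.0124) in place of -3.81, and -0.65 at 2 weeks (adjusted p = 0.237) and -0.90 at 4 weeks (adjusted p = 0.0681), the last 2 not called.

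Cps1, carbamoyl phosphate synthetase 1, opens the urea cycle and is abundant in periportal hepatocytes. Its level was 4.83 and 4.90 in cultured cells, 6.35 and 6.25 in 2-week CCl4 cells, 5.68 and 5.60 in 4-week CCl4 cells, and 8.72 and 7.31 in quiescent cells. As for Cyp2f2 on its brighter probe set, the groups did not overlap and ran culture, 4 weeks, 2 weeks, quiescent from low to high. Cps1 fell 8.86-fold in culture (-3.15 ± 0.36, adjusted p = 0.000314), 3.29-fold at 2 weeks (-1.72 ± 0.36, adjusted p = 0.0323) and 5.19-fold at 4 weeks (-2.38 ± 0.36, adjusted p = 0.00503). The culture and 4-week calls held whichever array was left out. At 2 weeks the call was kept without either quiescent array, although the change was then -1.01 without quiescent array 1, and it was lost without any other single array (adjusted p 0.0597 without either cultured array, 0.174 and 0.139 without 2-week arrays 1 and 2, and 0.0704 without either 4-week array), as it was with only the arrays compared (0.131).

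Ass1, argininosuccinate synthetase, joins citrulline to aspartate in the urea cycle and also serves arginine synthesis outside hepatocytes. Its level was 5.63 and 5.25 in cultured cells, 4.01 and 4.86 in 2-week CCl4 cells, 5.04 and 5.0 in 4-week CCl4 cells, and 4.89 and 5.07 in quiescent cells. All these values were within about 1 log2 unit of the guide, and the cultured arrays were the highest. No change against quiescent cells passed: 0.47 ± 0.26 in culture (adjusted p = 0.264, 95% interval -0.12 to 1.06), -0.54 ± 0.26 at 2 weeks (adjusted p = 0.344) and 0.04 ± 0.26 at 4 weeks (adjusted p = 0.964). The order of the groups was thus unlike that for Cps1, the other urea cycle enzyme of the set.

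**Figure D2:**
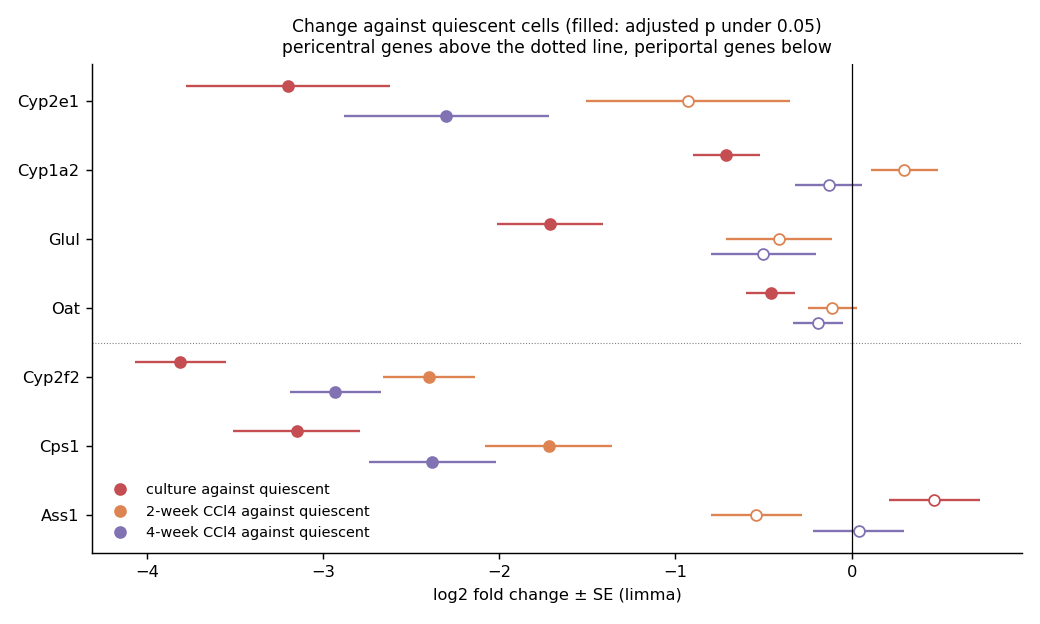
Log2 fold change against quiescent cells (horizontal axis, limma, bars are standard errors) for the 4 pericentral genes above the dotted line and the 3 periportal genes below it. Filled points passed an adjusted p of 0.05. Cyp2f2 and Cps1 are filled in all 3 comparisons, Cyp2e1 in culture and at 4 weeks, and Cyp1a2, Glul and Oat in culture alone.

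Counted together, 6 of the 7 members were lower in cultured than in quiescent cells and 0 were higher. Over all genes 10.3% were called lower in that comparison, 12.9% higher and 23.2% in either direction. In 2-week CCl4 cells 2 of 7 were lower, both periportal, where 2.43% of all genes were lower, 2.34% higher and 4.77% changed in either direction. In 4-week CCl4 cells 3 of 7 were lower, where 4.67% of all genes were lower, 4.04% higher and 8.71% changed in either direction. The members' median log2 fold change was -1.71 in culture, -0.54 at 2 weeks and -0.50 at 4 weeks, beside medians over all genes of 0.01, 0.00 and 0.00. These comparisons share the quiescent arrays. Cultured levels of Cyp2e1, Cyp1a2, Cyp2f2 and Cps1 lay close to or under the guide, so the array floor limits the size of their folds in culture.

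Between the CCl4 times no member passed. Of the 7 members 0 were called by limma, 1 (Cyp2e1) was under an unadjusted p of 0.05, and of all genes 19, or 0.0857%, were called, 0.0271% higher and 0.0586% lower. Cyp2f2 differed by -0.53 ± 0.26 (adjusted p = 0.671) and Cps1 by -0.66 ± 0.36 (adjusted p = 0.729) in 4-week against 2-week cells. Both had no overlap between the 2 times on the probe sets used, as had 5 of the 7 members in all. Among them, Ass1 was higher at 4 weeks (0.58 ± 0.26, adjusted p = 0.623). The share of all genes without overlap was not counted, so with 2 arrays per group this separation carries no result.

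Cultured cells were also set against the mean of both CCl4 groups, which asks whether culture and fibrosis leave the same levels of these genes. In this comparison 4 of 7 members were lower, where 8.72% of all genes were lower, 12.6% were higher and 21.3% changed in either direction. Glul differed by -1.25 ± 0.26 (adjusted p = 0.00884), Cyp2f2 by -1.15 ± 0.22 (adjusted p = 0.00561), Cps1 by -1.10 ± 0.31 (adjusted p = 0.0357) and Cyp1a2 by -0.79 ± 0.17 (adjusted p = 0.00935). Cyp2e1, at -1.58 ± 0.51, did not pass (adjusted p = 0.0568), nor did Oat (-0.30 ± 0.12, adjusted p = 0.131) or Ass1 (0.72 ± 0.22, adjusted p = 0.0524). Single arrays decided some of these calls. Without cultured array 1, Cyp1a2 (adjusted p = 0.103), Glul (0.0742) and Cps1 (0.17) were lost. Without cultured array 2, Glul (0.051), Cyp2f2 (0.0695) and Cps1 (0.151) were lost, and Cps1 was also lost without any one CCl4 array (0.0826 to 0.0951). Cyp2f2 was also lost with its dimmer probe set (-0.34, adjusted p = 0.356). Other settings gained calls. Cyp2e1 passed without either quiescent array or with only the arrays compared (adjusted p = 0.0079 in each), without 2-week array 1 (-1.93, 0.0328), with a filter on a mean of 5 (0.0358) and with a variance trend (0.0469). Ass1 passed as higher without 2-week array 2 (0.93, adjusted p = 0.00679) and with arrays centred on their median (0.77, 0.0274). The mean of the 12 hepatocyte genes was 4.92 and 5.07 in cultured cells and between 6.84 and 8.29 on the 4 CCl4 arrays.

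The contrast between zones was then described within each array as the mean of the 4 pericentral members minus the mean of the 3 periportal members. Only its change between groups can be read, since levels of different probe sets are not on a common scale. The difference was 2.16 and 2.60 in cultured cells, 2.98 and 3.02 in 2-week CCl4 cells, 2.76 and 2.66 in 4-week CCl4 cells, and 1.81 and 1.66 in quiescent cells. All 6 cultured and CCl4 arrays were above both quiescent arrays, by 0.64 in culture, 1.26 at 2 weeks and 0.97 at 4 weeks on average. With the mean of all probe sets of a gene in place of the brightest, the culture value was 0.17. The periportal mean was lower than in quiescent cells by more than the pericentral mean in each case. The pericentral changes were -1.52 in culture, -0.29 at 2 weeks and -0.78 at 4 weeks. The periportal changes were -2.17 in culture, -1.55 at 2 weeks and -1.76 at 4 weeks. Glul, Oat and Cyp1a2 on the pericentral side and Ass1 on the periportal side moved less than Cyp2e1, Cyp2f2 and Cps1. An equal fall of Cyp2e1, Cyp2f2 and Cps1 would also raise the difference. Its rise thus cannot be read as a shift between zones.

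Glul and Oat were bright and Ass1 dim in every group, so the contrast was also taken without them. The mean of Cyp2e1 and Cyp1a2 minus the mean of Cyp2f2 and Cps1 was -0.07 and 0.49 in cultured cells, 0.09 and 0.76 in 2-week CCl4 cells, 0.20 and 0.04 in 4-week CCl4 cells, and -1.37 and -1.26 in quiescent cells. Quiescent arrays were again the lowest, and the changes were 1.53 in culture, 1.74 at 2 weeks and 1.44 at 4 weeks. In culture Cyp2e1 averaged 4.82, Cyp1a2 4.73, Cyp2f2 4.26 and Cps1 4.87, all close to or under the receptor guide. The array floor thus limits the culture values of this measure and of the gene pairs that follow. Those culture values cannot be read as a shift between zones. Cyp1a2, dim throughout, enters this measure with its small changes. Cyp2e1 minus Cyp2f2 changed by 0.62 in culture, 1.47 at 2 weeks and 0.63 at 4 weeks. Cyp2e1 minus Cps1 changed by -0.05, 0.79 and 0.07, and the groups overlapped in that measure.

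The mean of the 12 hepatocyte genes was lower on all 4 CCl4 arrays than on both quiescent arrays, so the members were also set relative to that mean on the same array. Cultured cells were left out of this, as most of those genes were at the guide there. Cyp2f2 minus the hepatocyte mean was -2.41 and -2.33 in 2-week CCl4 cells, -1.91 and -1.65 in 4-week CCl4 cells, and -1.43 and -1.26 in quiescent cells. The 3 groups did not overlap, and the change was -1.02 at 2 weeks and -0.44 at 4 weeks. The dimmer probe set bears on this: with the mean of the gene's probe sets the values were -0.15 and 0.58. Cyp2e1 on the same scale was -1.42 and -0.50 in 2-week CCl4 cells, -1.20 and -1.23 in 4-week CCl4 cells, and -0.87 and -1.94 in quiescent cells. Both CCl4 groups lay inside the quiescent range or overlapped it, so no shift of Cyp2e1 relative to other hepatocyte transcripts was seen beyond the spread (changes of 0.44 and 0.19). Cps1 was -1.47 and -2.04 in 2-week CCl4 cells, -1.34 and -1.25 in 4-week CCl4 cells, and -1.11 and -1.71 in quiescent cells, which also overlapped. The other 4 members were higher relative to the hepatocyte mean on every CCl4 array than on both quiescent arrays. At 2 weeks the changes were 1.67 for Cyp1a2, 0.96 for Glul, 1.26 for Oat and 0.83 for Ass1. At 4 weeks they were 2.36 for Cyp1a2, 1.99 for Glul, 2.30 for Oat and 2.53 for Ass1. The hepatocyte mean itself changed by -1.37 at 2 weeks and -2.49 at 4 weeks, while none of these 4 members was called at either time. A member that stays level must rise on this scale, so these values largely restate the fall of the hepatocyte mean.

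**Figure D3:**
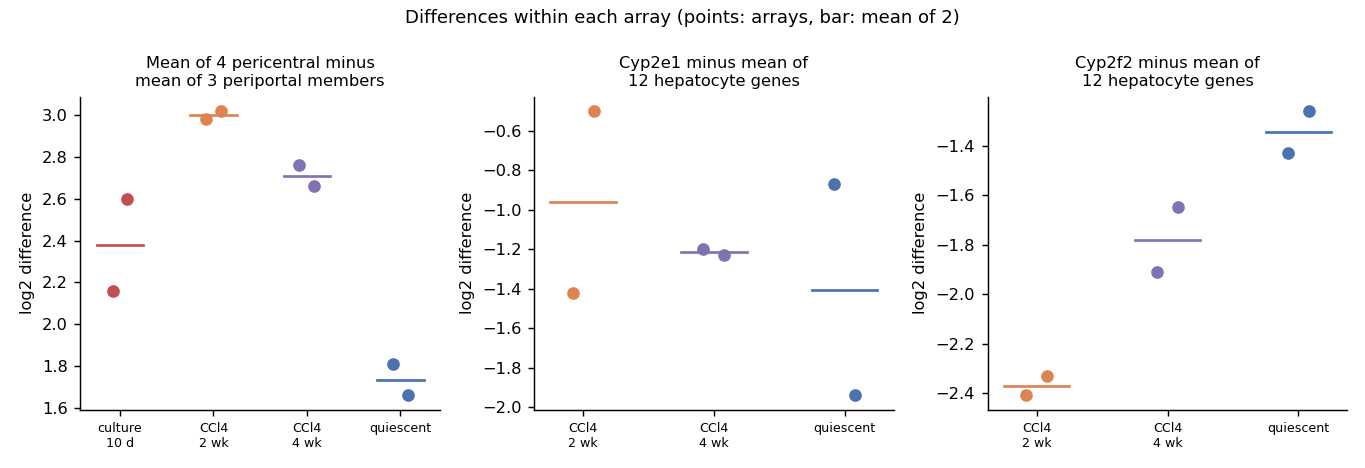
Differences of log2 levels within each array (vertical axes, whose ranges differ and do not start at 0). Left, the mean of 4 pericentral minus 3 periportal members is lowest on the 2 quiescent arrays, at 1.81 and 1.66. Middle and right, Cyp2e1 overlaps between groups relative to 12 hepatocyte genes, while Cyp2f2 is at -2.41 and -2.33 in 2-week CCl4 cells and at -1.43 and -1.26 in quiescent cells. Points are arrays and bars are means of 2.

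Other genes of the same zones were read from lists put together from knowledge of the lobule. Among 18 measured periportal genes of 20 listed, 13 were lower in culture, 6 at 2 weeks and 11 at 4 weeks, and 0 were higher in any of the 3. Their median log2 fold changes were -1.36, -0.74 and -1.29. Of all genes 10.3% were called lower in culture, 2.43% at 2 weeks and 4.67% at 4 weeks. The 2-week count moved with single arrays: it was 1 without 2-week array 1, 2 without 2-week array 2 and 3 without either 4-week array. The 4-week count was 4 without 4-week array 1 and 3 without 4-week array 2. Otc, the urea cycle enzyme that acts on the product of CPS1, measured 3.76 and 3.56 in cultured cells, 4.49 and 4.74 in 2-week CCl4 cells, 3.68 and 4.09 in 4-week CCl4 cells, and 6.18 and 5.96 in quiescent cells. Otc separated quiescent cells from all others, and changed by -2.41 ± 0.18 in culture (adjusted p = 3.03e-05), -1.45 ± 0.18 at 2 weeks (adjusted p = 0.00414) and -2.19 ± 0.18 at 4 weeks (adjusted p = 0.000331). Fbp1, the gluconeogenic fructose bisphosphatase, measured 3.84 and 3.86 in cultured cells, 5.01 and 5.58 in 2-week CCl4 cells, 4.74 and 3.88 in 4-week CCl4 cells, and 8.39 and 7.22 in quiescent cells. It changed by -3.96 ± 0.39 in culture (adjusted p = 0.000137), -2.52 ± 0.39 at 2 weeks (adjusted p = 0.0096) and -3.50 ± 0.39 at 4 weeks (adjusted p = 0.00124). Of the 18 periportal genes, 13 averaged at or under the guide of 4.75 in culture, 5 at 2 weeks and 8 at 4 weeks. Otc did so in each of those groups and Fbp1 in culture and at 4 weeks, so the array floor limits their folds there. The 2-week call for Fbp1 was lost without 2-week array 1 (adjusted p = 0.101).

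Most of the other pericentral genes could not be read. Of 20 measured, 14 averaged at or under the guide of 4.75 already in quiescent cells, against 1 of the 18 periportal genes. In culture 2 were lower and 1 higher, at 2 weeks 0 were called, and at 4 weeks 1 was lower, with medians of -0.18, -0.04 and -0.05. Of all genes 23.2% were called in either direction in culture, 4.77% at 2 weeks and 8.71% at 4 weeks. The pericentral list was below each of those shares. Leaving out 1 array moved the count of lower genes between 0 and 3 in culture and between 0 and 2 at 4 weeks. Cyp27a1, the sterol 27-hydroxylase of bile acid synthesis, measured 7.26 and 6.86 in cultured cells, 6.83 and 7.95 in 2-week CCl4 cells, 7.11 and 6.66 in 4-week CCl4 cells, and 8.30 and 8.12 in quiescent cells. It changed by -1.15 ± 0.33 in cultured cells (adjusted p = 0.035) and by -1.33 ± 0.33 in 4-week CCl4 cells (adjusted p = 0.042), each lost in 6 of the 8 fits with 1 array left out, all but those without a 2-week array. Avpr1a, the vasopressin V1a receptor, was higher in culture (0.78 ± 0.21, adjusted p = 0.0273), a call lost without cultured array 1 or either quiescent array. Lgr5, an R-spondin receptor of pericentral hepatocytes, averaged 3.99 in cultured and 4.16 in quiescent cells, both under the guide.

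**Figure D4:**
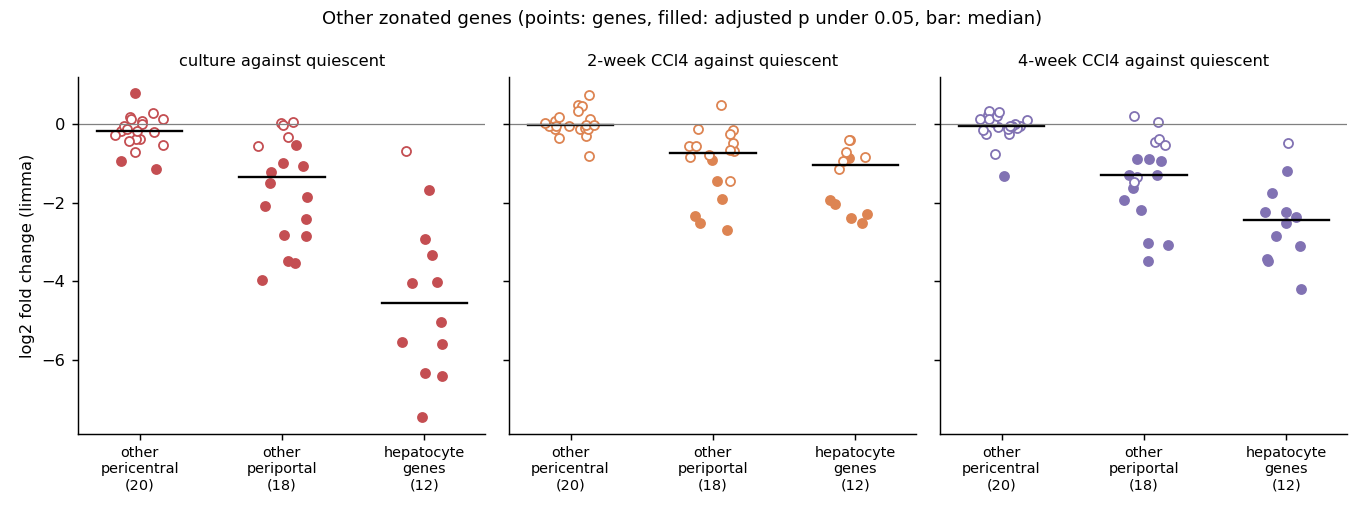
Log2 fold change (vertical axis, limma) of 20 other pericentral, 18 other periportal and 12 hepatocyte genes in cultured, 2-week CCl4 and 4-week CCl4 cells, each against quiescent cells. Points are genes, filled where the adjusted p was under 0.05, and bars are medians. The periportal medians lie at -1.36, -0.74 and -1.29 and the hepatocyte medians at -4.55, -1.04 and -2.44, while pericentral medians stay within 0.18 of 0, with 14 of those 20 genes at or under the guide in quiescent cells.

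Both list counts stood beside those of the hepatocyte genes, of which 11 of 12 were lower in culture, 6 at 2 weeks and 11 at 4 weeks. Their 2-week count was 0 without 2-week array 1, 3 without 2-week array 2 and 10 without quiescent array 2. Alb, albumin, measured 4.42 and 4.17 in cultured cells, 10.68 and 11.12 in 2-week CCl4 cells, 9.57 and 9.23 in 4-week CCl4 cells, and 11.90 and 11.63 in quiescent cells. On the probe sets used, albumin ran in the same order of groups as Cyp2f2 and Cps1. The step between the CCl4 times passed for none of them by limma (adjusted p = 0.0522 for Alb, 0.671 for Cyp2f2 and 0.729 for Cps1). That part of the order carries no result.

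Around Cps1, Ass1, Glul and Oat lie the other genes of ammonia, arginine and proline metabolism, of which 15 of 18 listed were measured. In culture 3 were lower and 1 higher, at 2 weeks 3 and 1, and at 4 weeks 4 and 1. The shares of all genes called in either direction were 23.2% in culture, which the list's 4 of 15 came near, 4.77% at 2 weeks and 8.71% at 4 weeks. Otc, described above, and Slc38a3, the glutamine transporter SNAT3, were lower in all 3 comparisons. Slc38a3 measured 4.55 and 4.29 in cultured cells, 4.76 and 4.77 in 2-week CCl4 cells, 4.70 and 4.33 in 4-week CCl4 cells, and 7.12 and 6.09 in quiescent cells. It changed by -2.19 in culture (adjusted p = 0.000816), -1.84 at 2 weeks (adjusted p = 0.0111, lost without either 2-week array) and -2.09 at 4 weeks (adjusted p = 0.00369). The cultured and 4-week arrays lay under the guide for Slc38a3, so the array floor limits those folds. Aldh18a1, which makes the pyrroline carboxylate from which proline and ornithine are built, went the other way. It measured 6.95 and 7.16 in cultured cells, 6.58 and 6.80 in 2-week CCl4 cells, 6.74 and 6.56 in 4-week CCl4 cells, and 5.63 and 6.11 in quiescent cells. It rose by 1.18 ± 0.19 in culture (adjusted p = 0.00201), and its calls of 0.82 at 2 weeks (adjusted p = 0.0458) and 0.77 at 4 weeks (adjusted p = 0.0384) were each lost in 7 of the 8 fits with 1 array left out, all but that without quiescent array 2. Asl, the urea cycle enzyme after ASS1, measured 7.46 and 7.18 in cultured cells, 6.70 on both 2-week arrays, 6.63 and 6.13 in 4-week CCl4 cells, and 7.50 and 7.05 in quiescent cells. Like Ass1 it was not lower in culture (0.05, adjusted p = 0.918), and its 4-week change of -0.89 ± 0.21 (adjusted p = 0.0362) was lost in 7 of the 8 fits with 1 array left out, all but that without quiescent array 2.

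For Cyp1a2 and Cyp2e1 the companion list held the aryl hydrocarbon receptor, its targets and the microsomal partners of P450 enzymes, 10 of 11 measured. In culture 3 were higher and 1 lower, and at each CCl4 time 1 was lower, beside 23.2% of all genes called in culture, 4.77% at 2 weeks and 8.71% at 4 weeks. The 1 of 10 at 4 weeks is near that share. Nqo1, a quinone reductase that is a target of the receptor and of NRF2, measured 7.03 and 7.21 in cultured cells, 4.86 and 4.68 in 2-week CCl4 cells, 4.61 and 4.69 in 4-week CCl4 cells, and 4.89 and 5.23 in quiescent cells. Cyp1b1, another target and a P450 of mesenchymal cells, measured 9.38 and 9.21 in cultured cells, 6.88 and 7.14 in 2-week CCl4 cells, 7.14 and 6.85 in 4-week CCl4 cells, and 7.66 and 6.60 in quiescent cells. Both rose in culture, Nqo1 by 2.06 ± 0.16 (adjusted p = 3.67e-05) and Cyp1b1 by 2.16 ± 0.30 (adjusted p = 0.000904). Cyp1a2 fell there, to near the guide and with a call lost without some single arrays, and Cyp1a1 changed by 0.13 (adjusted p = 0.764). Neither of the targets Tiparp (means of 8.69 in culture and 9.11 in quiescent cells) and Ahrr (4.70 and 4.01) was called in culture. Ephx1, microsomal epoxide hydrolase, was lower in all 3 comparisons, with changes of -1.15 in culture (adjusted p = 0.0186), -1.27 at 2 weeks (adjusted p = 0.0419) and -1.41 at 4 weeks (adjusted p = 0.0184). Its calls were lost in 3 of 8 fits with 1 array left out in culture (without quiescent array 2 or either cultured array), in 7 of 8 at 2 weeks (all but that without quiescent array 1) and in 1 of 8 at 4 weeks (without 4-week array 2).

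Of 15 measured zonation signals and hepatocyte transcription factors among 16 listed, 4 were lower and 2 higher in culture, 1 was lower at 2 weeks and 2 were lower at 4 weeks. Over all genes 23.2% were called in culture, 4.77% at 2 weeks and 8.71% at 4 weeks. Rspo3, the R-spondin that amplifies Wnt signalling and is made by stellate and central vein endothelial cells, was bright. It measured 9.67 and 9.42 in cultured cells, 10.59 and 10.66 in 2-week CCl4 cells, 10.57 and 10.61 in 4-week CCl4 cells, and 11.57 and 11.80 in quiescent cells. Quiescent arrays were highest, cultured arrays lowest, and the CCl4 groups shared 1 level between them. Rspo3 fell 4.4-fold in culture (-2.14 ± 0.15, adjusted p = 1.86e-05), and changed by -1.06 ± 0.15 at 2 weeks (adjusted p = 0.00635) and -1.09 ± 0.15 at 4 weeks (adjusted p = 0.00311). Its 2-week call was lost without 2-week array 1 (adjusted p = 0.0611). Tcf7l2, a nuclear partner of beta-catenin, measured 7.61 and 7.69 in cultured cells, 8.32 and 8.66 in 2-week CCl4 cells, 7.92 and 8.15 in 4-week CCl4 cells, and 9.10 and 8.65 in quiescent cells. It changed by -1.23 ± 0.19 in culture (adjusted p = 0.00178) and by -0.84 at 4 weeks (adjusted p = 0.0302), the 4-week call being lost in 5 of the 8 fits with 1 array left out: those without quiescent array 1, either cultured array or either 4-week array. Lgr4, a receptor for R-spondins, was higher in culture by 0.80 (adjusted p = 0.00943, lost without cultured array 2). Axin2, a direct Wnt target, did not pass in culture (-0.53, adjusted p = 0.0579).

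The genes whose levels ran most like each member over the 8 arrays were found among the genes with an SD of at least 0.5 (2997 for Cyp2e1, Glul, Cyp2f2 and Cps1, and 2998 for Cyp1a2, Oat and Ass1), by Pearson's r, as a description of arrays that share 4 groups. Cyp2e1 ran most like Cyp2j9 (r = 0.987), Adh1 (0.987), the hepatic alcohol dehydrogenase, and Nrn1 (0.985). Cyp2f2 ran most like Mup20 (0.997), a major urinary protein, Npr1 (0.994) and 4930480K15Rik (0.994). Cps1 ran most like Mug1 (0.992), a plasma protease inhibitor, Stab1 (0.991), a scavenger receptor of sinusoidal endothelium, and Serpind1 (0.99), a plasma serpin. The nearest genes of these 3 members thus included products of hepatocytes and, for Cps1, an endothelial gene. As endothelial transcripts followed the same order of groups, such correlations do not assign a cell type. Glul ran most like Ifitm1 (0.988), Gpr146 (0.983) and Fmnl2 (0.983), and Oat like Ikzf4 (0.979), Krt18 (0.97) and S100a8 (0.969). Cyp1a2 ran most like Sned1 (0.958), Kdm7a (0.946) and Snord118 (0.943). Ass1 had the weakest likeness, with Polh (0.865), Lats2 (0.848) and Tcaf2 (0.82).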

How the data were processed

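Total RNA of 8 stellate cell preparations was preamplified, biotin-labelled and hybridised to Affymetrix arrays, per the labels' protocols. The deposited values are log2 intensities after RMA (a method that corrects background, quantile-normalizes and summarizes probes). Per the submitters' processing notes this was done with Affymetrix Expression Console, version not given in the sources used here. The deposited log2 table held 41345 probe sets with array medians of 4.63 to 4.72. In the probe table, 23521 probe sets had 1 gene symbol, 1814 several and 16010 were not named. Each of 22180 genes was read from its single-symbol probe set with the highest mean (1082 genes had several). The number of arrays limits precision.

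A linear model of 4 groups of 2 arrays was fitted to all genes with limma 3.58.1 in R 4.3.3 and tested on simulated data. A gene was called at a Benjamini-Hochberg adjusted p under 0.05 over all genes. Named genes were all members, up to 4 genes with the smallest p per list and comparison, and the 3 genes most correlated with each member. Lgr5 was added with its values known. Members, lists and the receptor guide were chosen with earlier results of these data known. Alternatives were a replicate block, robust and trended variance estimates, median centring, other probe-set rules, a mean filter of 5, only the arrays compared, and each array left out.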

Additional observations from a re-analysis of the deposited data

How the results depend on the processing

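The labels gave same-numbered arrays nothing in common but the number. Over all genes, deviations of same-numbered arrays correlated between groups at -0.042 to 0.074. These values cannot exclude a shared batch that acts on some genes. The replicate block left 5042 genes called in culture against 5145 without it, 906 against 1058 at 2 weeks, 1741 against 1932 at 4 weeks, 9 against 19 between the CCl4 times and 4624 against 4722 for culture against CCl4. Of the members it ended the calls of Oat in culture (adjusted p = 0.068) and Cyp2e1 at 4 weeks (0.0705), leaving 5 lower in culture and 2 at 4 weeks, and changed no other member's call.

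At 2 weeks 1 member was lower with the dimmer probe sets of Glul and Cyp2f2 (added after seeing the data). With only the arrays compared, 4 members were lower in culture, 1 at 2 weeks, 2 at 4 weeks and 5 in culture against CCl4. With arrays centred on their median, 1 member, Ass1, was higher in culture against CCl4 (0.77, adjusted p = 0.0274). The zone difference with the mean of probe sets was 0.17 in culture, 0.96 at 2 weeks and 0.62 at 4 weeks, and over the P450 genes and Cps1 it was 1.53, 1.74 and 1.44. Relative to the hepatocyte genes, Cyp2f2 with the mean of probe sets was -0.15 at 2 weeks and 0.58 at 4 weeks, a change of sign. With the hepatocyte median, Cyp2f2 was -0.12 and Cps1 0.43 at 4 weeks. The causes were not tested.

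With 1 array left out, 4 to 5 members were lower in culture, 1 to 3 at 2 weeks, 2 to 4 at 4 weeks and 1 to 5 in culture against CCl4, where 0 to 1 were higher. The zone difference ran from 0.43 to 0.86 in culture, 1.19 to 1.34 at 2 weeks and 0.90 to 1.05 at 4 weeks. Relative to the hepatocyte genes, at 2 and 4 weeks, Cyp2e1 ran from -0.09 to 0.98 and from -0.34 to 0.72, Cyp2f2 from -1.11 to -0.94 and from -0.57 to -0.31, and Cps1 from -0.64 to -0.05 and from -0.18 to 0.41. The signs of uncalled changes turned for Cyp2e1 at 2 weeks (-1.87 to 0.02), Glul at 2 weeks (-0.97 to 0.15) and 4 weeks (-1.06 to 0.06), Ass1 at 4 weeks (-0.05 to 0.13), and Glul (-0.20 to 0.02) and Oat (-0.19 to 0.03) between the CCl4 times. Over all single-gene results, 236 of these fits kept direction and side of the threshold, 32 lost the call, 6 gained one and 6 turned. The other settings kept 260, lost 11 and gained 4. The filter on a mean of 5 removed Ass1. Signals near the guide, those of Cyp1a2 and Ass1 and of most members in culture, limit how small a change can be read.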

Other observations

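In 2-week CCl4 cells array 1 minus array 2 was -1.39 for Cyp2e1, -0.85 for Ass1, -0.55 for Cyp2f2, -0.42 for Cyp1a2, -0.22 for Oat, 0.10 for Cps1 and 0.10 for Glul, and the means of the 12 hepatocyte genes were 7.81 and 8.29. In quiescent cells array 1 was above array 2 by 1.89 for Cyp2e1, 1.41 for Cps1, 1.12 for Glul and 0.65 for Cyp2f2, and the hepatocyte means were 9.83 and 9.01. The differences in quiescent cells were smaller for Cyp1a2 (-0.04), Oat (0.13) and Ass1 (-0.18). The means of the sinusoidal endothelial markers on the same quiescent arrays were 9.98 and 8.85, and those of the quiescent stellate markers were 10.78 and 10.96. The part of the other cells' transcripts in these differences was not tested.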
